A study of Mus musculus with 50 samples.

Results

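The genes described here are 34 target genes and core regulators of the transcription factor p53, out of 19455 genes listed for mouse embryonic stem cells. They were chosen by name, with earlier results of these data known. All 34 were listed, and 30 had enough reads to be tested. The other 4, Fas, Pidd1, Dram1 and Rrm2b, stayed under the minimum of 5 FPM in 2 replicate means. FPM is the read count of a gene scaled to the total of its library, with no correction for length. The cells were of the line KH2, with a C57BL/6 x 129/Sv background, grown in serum with LIF on gelatin. The 5 genotypes were WT, Ythdf1_KO, Ythdf2_KO, Ythdf3_KO and Triple_KO, the last labelled as lacking Ythdf1, Ythdf2 and Ythdf3 together. These genes encode readers of N6-methyladenosine, a base modification of mRNA. Cells of every genotype received 5 µM actinomycin D, which blocks transcription, with harvests at 0, 4 and 8 h. For every genotype there were 2 replicates, A and B, and 10 libraries: 4 before treatment, 2 at the middle time and 4 at the last. Whether a knockout line was 1 clone, and which part of each gene was edited, is not given in the sources used here.

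p53, encoded by Trp53, is a transcription factor that is stabilised after DNA damage and other stress. It switches on genes that halt the cell cycle, promote cell death, repair DNA and adjust metabolism. Mdm2, one of these targets, encodes the ubiquitin ligase that marks p53 for breakdown, so that the pathway holds itself in check. In mouse embryonic stem cells p53 is abundant and its pathway can limit the expansion of damaged cells. These measurements are of RNA only, so they do not show the amount or activity of the p53 protein.

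To show the kind of sequence p53 binds, the windows from 250 bases before to 50 bases after the RefSeq start sites (GRCm38.p6) were searched for the p53 half-site consensus, a 10-base motif that reads the same on both strands. It was found in 15 of 33 windows of the members (45.5%) and in 8.36% of all 32851 windows. By gene, this was 14 of 27 members with a window (51.9%), against 9.55% of 27025 genes. As the members were chosen as p53 targets, a higher share among them follows from the choice and is no result of these data. The windows of 7 members were not used here: Xpc, Ddb2, Perp, Tnfrsf10b, Trp53inp1, Rrm2b and Zmat3. The matches below belong to members whose levels changed in at least 1 comparison. Capitals mark the half-site, and each sequence is printed 5′ to 3′ on the gene's strand.
Cdkn1a, chr17:29090918-29090947, plus strand: tggccttcagGAACATGTCTtgacatgttc
Mdm2, chr10:117710925-117710954, minus strand: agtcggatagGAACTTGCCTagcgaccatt
Ccng1, chr11:40755452-40755481, minus strand: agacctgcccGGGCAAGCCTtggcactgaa
Trp53, chr11:69580274-69580303, plus strand: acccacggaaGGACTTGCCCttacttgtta
Aen, chr7:78895927-78895956, plus strand: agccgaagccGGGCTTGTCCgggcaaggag
Sesn1, chr10:41887256-41887285, plus strand: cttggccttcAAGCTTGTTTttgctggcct
These matches describe the letters of the reference only, since binding was not measured in these samples.

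Library totals were 796921 to 2341410 reads. Replicates A and B of a group differed no more than duplicate libraries of 1 replicate did, with a median chi-square per degree of freedom of 1.35 over 45 pairs and 1.39 over 20 pairs. Nothing in the labels says that A and B were separate cultures, so the spread behind the p-values may be purely technical. The targeted readers were still read in the knockouts. Ythdf1 had 57.2 ± 8.05 FPM (SD, n = 4 libraries) in WT and 56.9 ± 5.92 in the libraries labelled Ythdf1_KO. Ythdf2 had 51.5 ± 7.69 in WT, 33.1 ± 4.20 in those labelled Ythdf2_KO and 86.2 ± 11.4 in Triple_KO. Ythdf3 had 23.2 ± 7.98 in WT and 23.8 ± 3.59 in those labelled Ythdf3_KO. Reads near the 3′ end can remain when another part of a gene is edited, so these levels do not check the labels.

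Markers of other cell types differed between the genotypes at 0 h. The summed level of 15 fibroblast markers, which feeder cells would carry, was 813.7 to 937.2 FPM in the 4 WT libraries. Ythdf1_KO had 929.9 to 983.2, Ythdf2_KO 750.7 to 761.7, Ythdf3_KO 737.7 to 777.4 and Triple_KO 978.3 to 1118 FPM. The fibroblast marker Lum was listed at 0 in all WT libraries of 0 h and in those of each knockout, and Dcn in those of WT. In Triple_KO 6 of 11 tested fibroblast markers were higher and 0 were lower. The summed level of 10 embryonic stem cell markers was 2733 to 2902 FPM in WT and 2288 to 2388 in Triple_KO, where Tdgf1, Dppa5a, Pou5f1 and Esrrb were lower. The summed level of 10 endoderm markers was 165.6 to 190.1 FPM in WT, 99.9 to 103.4 in Ythdf3_KO and 279.4 to 304.5 in Triple_KO. In Triple_KO Krt18 and Krt8 of this list were higher (log2 change 1.535 and 0.93), while Lama1 and Col4a1 were lower (-0.92 and -0.83). Only 4 of these 10 markers had enough reads to be tested. Gata6 was listed at 0 in all Ythdf3_KO libraries of 0 h, and Sox7 in those of Triple_KO. The summed level of 6 trophectoderm markers was 12.7 to 20.97 FPM in WT and 47.7 to 65.6 in Triple_KO. Only Tfap2c of this list was called in Triple_KO (log2 change 2.39), and Elf5 was listed at 0 in all its libraries of 0 h. Of the 4 endoderm, 3 trophectoderm and 2 neural markers tested, 2, 1 and 1 were higher in Triple_KO and 2, 0 and 0 lower. In Ythdf3_KO 4 endoderm markers were lower, and 0 trophectoderm and 0 neural markers were called. In Ythdf2_KO, as in Ythdf1_KO, 2 endoderm markers, Krt18 and Krt8, and 1 trophectoderm marker, Tfap2c, were higher. In both, 1 endoderm marker, Lama1, was lower and 0 neural markers were called. Of the 11 fibroblast markers tested, 1, S100a6, was lower in Ythdf2_KO and 0 were higher. In Ythdf3_KO S100a6 and Sparc were lower and Fn1 was higher. The mean of S100a6 was 183 FPM in WT, 105.2 in Ythdf2_KO and 107.1 in Ythdf3_KO, and that of Fn1 was 163.6, 180.3 and 193.7 FPM. The fibroblast sums were thus below WT in Ythdf2_KO and Ythdf3_KO and above WT in Triple_KO. In Ythdf1_KO they overlapped the top of the WT range, with 3 fibroblast markers higher and 0 lower. The part of any of these lists in the results below was not tested. In these bulk samples, fewer cells of a type and less RNA per cell cannot be told apart.

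At 0 h, several p53 targets were higher in Triple_KO than in WT, led by Cdkn1a and Mdm2, while Trp53 itself was lower. Of the 30 members tested, 9 were higher and 2 lower at an adjusted p under 0.05 (limma, Benjamini-Hochberg over 8697 genes). Without Xpc, which passed the minimum only through knockouts, 8 of 29 were higher and 2 lower. Sesn1, still among these 8, reached 5 FPM in 1 of the 2 WT replicate means and needed knockouts to pass. Over all genes tested, 14.3% were called higher and 7.65% lower. The median log2 change of the members was 0.23, against 0.07 over all genes. With TMM scaling, 7 members were higher and 2 lower, and with the medians of all genes aligned, 6 and 2. Over all genes the split of 1241 higher and 665 lower became 985 and 854 with TMM and 850 and 1003 with aligned medians. The calls at 0 h depend on what is fitted with them: testing without the filter on low values, or fitting all times together, ended most of them in every knockout. Calls over all genes fell as well, in Triple_KO to 594 higher and 275 lower without the filter and to 346 and 211 with all times. Under all 13 alternatives the calls kept were Cdkn1a and Mdm2, 2 of 11, in Triple_KO, Ccng1, 1 of 8, in Ythdf2_KO, and 0 of 6 in Ythdf3_KO and 0 of 2 in Ythdf1_KO.

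Among the regulators, Trp53 had 182, 181, 168 and 178 FPM in the 4 WT libraries and 122, 148, 145 and 155 FPM in those of Triple_KO. The groups did not overlap, and the log2 change was -0.32 ± 0.07 (SE from limma, n = 2 replicates per group, adjusted p = 0.000312). Without replicate A of Triple_KO this call was lost. Mdm2 moved the other way, from 96.2, 73.5, 102 and 87.4 FPM in WT to 139, 136, 149 and 134 FPM in Triple_KO. Every Triple_KO library lay above every WT library (log2 change 0.64 ± 0.10, adjusted p = 4.3e-09). Ppm1d, a phosphatase that dampens p53 signalling, changed by 0.19, and Pml, which organises nuclear bodies, by -0.09, and neither passed the test.

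Cdkn1a, which encodes the cell cycle inhibitor p21, had the smallest adjusted p of the members. It had 69.7, 76.1, 81.2 and 90.9 FPM in WT and 123, 135, 144 and 142 FPM in Triple_KO, with no overlap (log2 change 0.77 ± 0.10, adjusted p = 3.66e-12). Plk2, a polo-like kinase, had 58.0, 36.3, 48.9 and 31.5 FPM in WT and 82.8, 59.8, 67.0 and 73.7 FPM in Triple_KO. Those groups lay close together without overlapping (log2 change 0.71 ± 0.14, adjusted p = 1.4e-05). Gadd45a, a growth arrest gene induced by DNA damage, was lower by a log2 change of -0.76 ± 0.28 (adjusted p = 0.033). Its call was lost without either Triple_KO replicate and without WT replicate B. Of the 7 cell cycle members, 2 were higher, 1 was lower and 4 did not pass.

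Of the 9 tested members linked to cell death and growth restraint, 3 were higher. Phlda3, which competes with AKT for membrane lipids, had 170, 156, 152 and 143 FPM in WT and 196, 209, 213 and 197 FPM in Triple_KO. The groups were apart (log2 change 0.39 ± 0.08, adjusted p = 2.86e-05). Trp53inp1, a nuclear cofactor of p53, rose from a mean of 61.0 ± 3.56 to 90.8 ± 1.69 FPM (SD, n = 4 libraries; log2 change 0.57 ± 0.11, adjusted p = 2.36e-05). Ei24 rose by 0.22 ± 0.08 (adjusted p = 0.0312), but this call was lost with either other scaling and without any 1 of the 4 replicates compared.

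Among the metabolic members, Ddit4, an inhibitor of mTORC1, was higher by 0.53 ± 0.14 (adjusted p = 0.00181), with overlapping libraries. This call was lost without Triple_KO replicate A and without WT replicate B. Sesn1, a stress-induced inhibitor of mTORC1, had 6.17, 0.845, 7.06 and 9.79 FPM in WT and 14.7, 8.30, 5.94 and 12.04 FPM in Triple_KO. The libraries overlapped, and the low WT library weighs on the change (log2 change 0.88 ± 0.32, adjusted p = 0.0315). Only 1 of the 2 WT replicate means of Sesn1 reached 5 FPM, so it needed knockouts to enter the test. Its change is therefore a description only. The DNA damage sensor Xpc had 5.55, 0, 7.65 and 0.699 FPM in WT and 6.75, 3.32, 4.86 and 7.71 FPM in Triple_KO, with overlap. As 0 of the 2 WT replicate means reached 5 FPM, Xpc entered the test only through knockouts, and its log2 change (1.04 ± 0.39, adjusted p = 0.038) is a description that supports nothing here. The calls of Sesn1 and Xpc were lost with edgeR on recovered reads, with aligned medians, and without WT replicate A or either Triple_KO replicate.

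**Figure D1:**
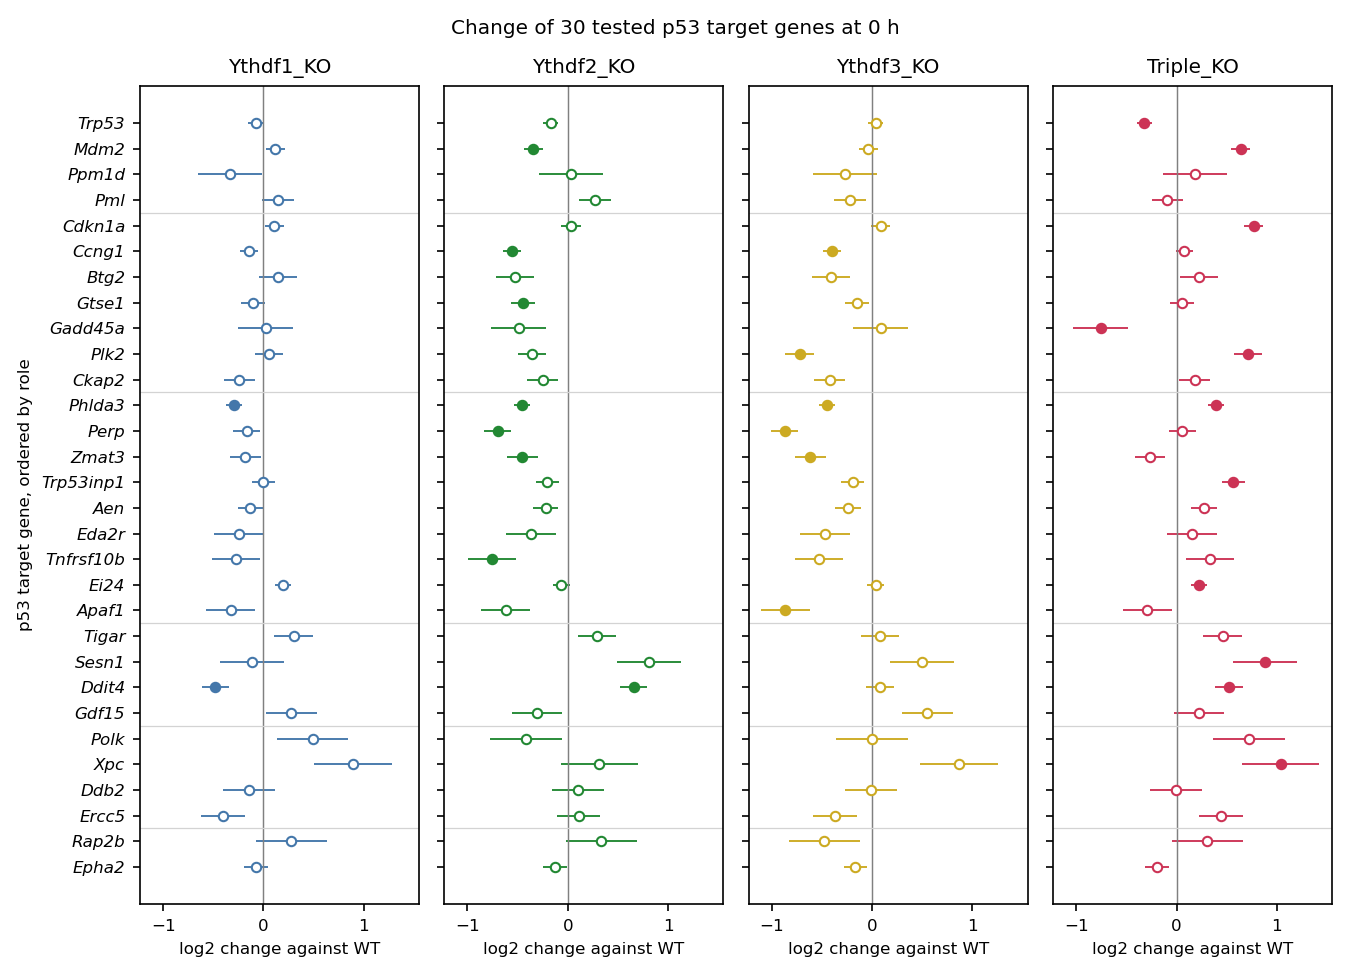
Log2 change against WT at 0 h (x axis) of the 30 tested members, in rows ordered by role, for the 4 knockouts; bars are SE from limma and filled points passed at an adjusted p under 0.05. Cdkn1a and Mdm2 lie to the right in Triple_KO at 0.77 and 0.64, while Perp lies to the left in Ythdf2_KO and Ythdf3_KO at -0.70 and -0.87.

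In Ythdf2_KO most of the members that changed were lower than in WT, among them cell cycle and cell death genes. Of the 30 tested, 7 were lower and 1 was higher (limma, adjusted p under 0.05). Over all genes, 4.22% were called lower and 3.98% higher, and the median log2 change was -0.24 for the members and -0.02 for all genes. With TMM scaling 6 members were lower and 1 higher, while the split over all genes went from 346 higher and 367 lower to 525 and 266. Ccng1, which encodes cyclin G1, had 130, 124, 134 and 124 FPM in WT and 75.4, 98.2, 85.3 and 90.3 FPM in Ythdf2_KO. All 4 knockout libraries were below all 4 of WT (log2 change -0.55 ± 0.09, adjusted p = 1.48e-07), and the call held under every alternative tried. Phlda3 had 104, 122, 108 and 119 FPM in Ythdf2_KO, each below every WT value (log2 change -0.45 ± 0.08, adjusted p = 3.64e-06).

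Perp, a desmosomal membrane protein that p53 induces in apoptosis, had 60.4, 43.1, 66.5 and 57.3 FPM in WT and 39.7, 34.1, 34.1 and 29.7 FPM in Ythdf2_KO. The groups did not overlap (log2 change -0.70 ± 0.13, adjusted p = 3.35e-05). Mdm2 had 67.7, 71.2, 70.5 and 70.8 FPM in Ythdf2_KO and was lower by -0.34 ± 0.10 (adjusted p = 0.00786). Its call was lost without either Ythdf2_KO replicate and without WT replicate B. Gtse1, a G2 and S phase protein that restrains p53, changed by -0.45 ± 0.12 (adjusted p = 0.00636), and this call was lost without Ythdf2_KO replicate A. The death receptor gene Tnfrsf10b changed by -0.75 ± 0.24 (adjusted p = 0.0268) and lost its call without Ythdf2_KO replicate B or WT replicate B. Zmat3, an RNA-binding zinc finger protein, changed by -0.45 ± 0.15 (adjusted p = 0.0428). That call was lost with both other scalings and without either Ythdf2_KO replicate or WT replicate A.

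Ddit4 was the 1 member higher in Ythdf2_KO. It had 51.2, 38.9, 32.4 and 32.8 FPM in WT and 59.1, 86.2, 70.0 and 37.8 FPM in the knockout, with overlap (log2 change 0.66 ± 0.14, adjusted p = 0.000198). Its call was lost without Ythdf2_KO replicate A and without WT replicate B. Trp53 changed by -0.17 ± 0.07 (adjusted p = 0.163) and Cdkn1a by 0.03 ± 0.10 (adjusted p = 0.913), and neither passed. Cdkn1a had 80.8, 77.2, 77.9 and 87.6 FPM in Ythdf2_KO, within the range of WT.

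In Ythdf3_KO 6 members were lower and 0 higher. Of these 6, 4 belong to cell death and growth restraint, the role of 9 of the 30 members tested. At an unadjusted p under 0.05, where no share over all genes was taken, limma gave 2 members higher and 9 lower. After adjustment edgeR gave 0 members higher and 6 lower, against 199 and 193 over all 8697 genes. Over all genes limma called 1.99% lower and 2.47% higher after adjustment. The members' median log2 change was -0.21, against -0.01 over all genes. With TMM scaling the members' counts were the same, and the split over all genes went from 215 higher and 173 lower to 328 and 154. Perp had 30.8, 30.5, 27.9 and 32.1 FPM in Ythdf3_KO, below all WT libraries (log2 change -0.87 ± 0.13, adjusted p = 1.28e-07). Phlda3 had 109, 109, 106 and 127 FPM, also below all WT libraries (log2 change -0.45 ± 0.08, adjusted p = 6.16e-06).

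Plk2 had 32.5, 23.5, 26.3 and 20.4 FPM in Ythdf3_KO, and only its highest library overlapped WT (log2 change -0.72 ± 0.14, adjusted p = 6.71e-05). Ccng1 had 104, 89.8, 97.8 and 95.3 FPM, apart from WT (log2 change -0.40 ± 0.09, adjusted p = 0.000615). Zmat3 changed by -0.62 ± 0.15 (adjusted p = 0.00424). Apaf1, the scaffold of the apoptosome, changed by -0.86 ± 0.24 (adjusted p = 0.0152). Both calls were lost without Ythdf3_KO replicate A and without WT replicate A, and that of Apaf1 also without Ythdf3_KO replicate B. Trp53 changed by 0.04 ± 0.07 (adjusted p = 0.879), Mdm2 by -0.04 ± 0.10 (adjusted p = 0.896) and Cdkn1a by 0.08 ± 0.10 (adjusted p = 0.744), so the regulators and p21 gave no call where Perp, Phlda3 and Ccng1 were lower.

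Ythdf1_KO showed the fewest changes. Of the 30 members, 2 were lower and 0 higher, against 0.897% lower and 1.72% higher over all genes. At an unadjusted p under 0.05, where no share over all genes was taken, limma gave 2 higher and 2 lower. After adjustment edgeR called 0 members higher and 1 lower, against 117 and 70 over all genes. The median log2 change was -0.09 for the members and 0.02 for all genes. Phlda3 had 124, 119, 123 and 140 FPM, below all WT libraries (log2 change -0.29 ± 0.08, adjusted p = 0.0187). Ddit4 had 25.6, 27.1, 16.8 and 45.9 FPM, with 1 library inside the WT range (log2 change -0.48 ± 0.14, adjusted p = 0.0297). The call of Phlda3 was lost without replicate A of either genotype. That of Ddit4 was lost without either Ythdf1_KO replicate, without WT replicate A and with edgeR. Trp53 changed by -0.08 ± 0.07 (adjusted p = 0.709), Mdm2 by 0.12 ± 0.10 (adjusted p = 0.647) and Cdkn1a by 0.11 ± 0.10 (adjusted p = 0.682).

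**Figure D2:**
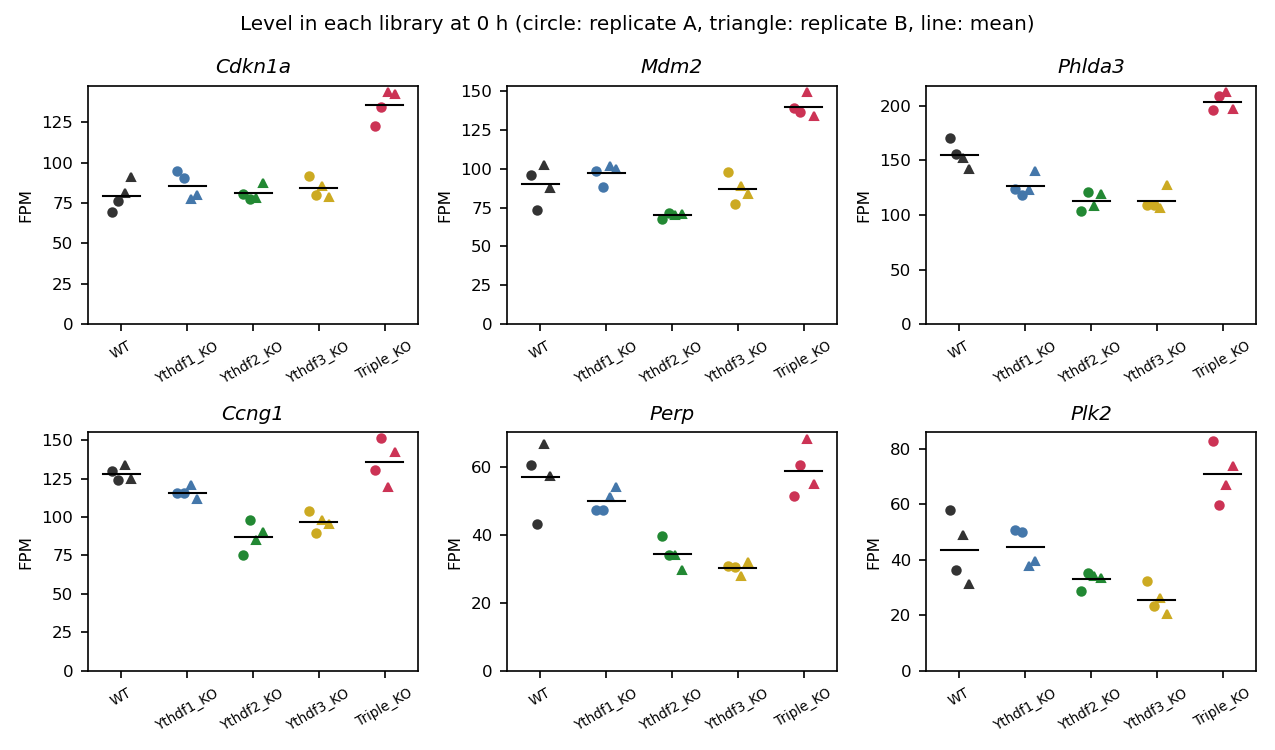
FPM at 0 h (y axis) of 6 members in each of the 4 libraries of every genotype (x axis); circles are replicate A, triangles replicate B and lines the mean. The Cdkn1a values of Triple_KO, from 123 FPM up, lie above every library of the other genotypes, while Perp is lowest in Ythdf3_KO at a mean of 30.3 FPM.

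Phlda3 was thus called in all 4 knockouts, lower in the single knockouts and higher in Triple_KO. From the WT mean of 155 ± 11.4 FPM (SD, n = 4 libraries) the 0 h level differed as follows: Ythdf1_KO had 127 ± 9.27, Ythdf2_KO 113 ± 8.48, Ythdf3_KO 113 ± 9.67 and Triple_KO 204 ± 8.29 FPM. All 4 comparisons share the WT libraries, and the knockouts were not tested against each other.

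The other genes of the pathway were described from 2 lists. Of 18 tested among 23 further p53 targets, 5 were higher in Triple_KO and 0 lower, against 14.3% and 7.65% over all genes. These were Sfn (log2 change 0.85 ± 0.09), a 14-3-3 protein that holds the cell cycle, the death gene Pmaip1 (0.62 ± 0.17), Rps27l (0.28 ± 0.08), Ak1 (0.42 ± 0.13) and the survival gene Bcl2l1 (0.39 ± 0.13). The median over all 18 was 0.18, against 0.07 over all genes. In Ythdf2_KO Sfn was higher (0.34 ± 0.09), and Trp53i11 (-1.002 ± 0.27), Slc19a2 (-0.72 ± 0.20) and the death effector Bax (-0.15 ± 0.05) were lower. In Ythdf3_KO only Bcl2l1 of this list was called (-0.44 ± 0.13), and in Ythdf1_KO only Sfn (0.55 ± 0.09). Over all genes the shares called higher and lower were 3.98% and 4.22% in Ythdf2_KO, 2.47% and 1.99% in Ythdf3_KO, and 1.72% and 0.897% in Ythdf1_KO.

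Of 20 tested among 26 regulators of p53, 3 were higher in Triple_KO, namely the deubiquitinase Usp10 (0.57 ± 0.10), the methyltransferase Smyd2 (0.69 ± 0.22) and the checkpoint kinase Atr (1.07 ± 0.36). The deubiquitinase Usp7 (-0.24 ± 0.07) and the nucleolar protein Npm1 (-0.08 ± 0.03) were lower. These counts are near the shares over all genes (14.3% higher and 7.65% lower), and the median of the 20 was -0.06, against 0.07. In Ythdf2_KO Npm1 was higher (0.13 ± 0.03), and Prmt5 (-0.25 ± 0.07) and Cdkn2a (-0.54 ± 0.18) were lower. In Ythdf3_KO Npm1 was higher (0.10 ± 0.03), and in Ythdf1_KO limma called 0 of the 20. The shares over all genes in these knockouts are those given above for the further targets.

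The time course asked how fast each transcript was lost once transcription was blocked. In WT most members were lower after 8 h, while Trp53 was not called at either time. At 4 h 19 of 30 members were lower than at 0 h and 0 were higher, against 27.3% lower and 3.61% higher over all genes. At an unadjusted p under 0.05, where no share over all genes was taken, limma gave 1 higher. After adjustment edgeR called 0 members higher and 22 lower, against 327 and 2554 over all 9078 genes. At 8 h 25 members were lower and 0 higher, against 55.2% and 1.73%, with 0 higher at an unadjusted p under 0.05. There edgeR called 0 members higher and 27 lower, against 191 and 5314 over all genes. The members' median level at 8 h was 31.0% of that at 0 h, against 54.9% over all genes. Levels are shares of a library, and the labels name no spike-in, so a loss common to all RNA is not seen. A library's total also holds reads outside the listed genes. In WT the listed genes made up 42.4 to 43.9% of it at 0 h and 32.9 to 33.4% at 8 h. In Triple_KO this share was 43.7 to 45.3% at 0 h and 39.5 to 43.0% at 8 h. At 8 h it was 32.7 to 35.0% in Ythdf1_KO, 29.5 to 31.5% in Ythdf2_KO and 30.2 to 31.2% in Ythdf3_KO. The part of this shift in the losses and in the decay differences was not tested. Scaling moved the median log2 change of all genes at 8 h from -0.81 to -0.22 with TMM, and the members' counts to 17 lower and 1 higher. With aligned medians 13 were lower and 2 higher, and at 4 h the counts were 12 lower and 1 higher with TMM and 11 and 1 with aligned medians. Over all genes the split at 8 h went from 157 higher and 5007 lower to 1398 and 2309 with TMM and 2634 and 1137 with aligned medians, and at 4 h from 328 and 2474 to 1135 and 1365 and to 1986 and 935.

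Trp53 had 200 and 210 FPM in the 2 WT libraries of 4 h and 151, 161, 165 and 151 FPM in those of 8 h. Its log2 change was 0.21 ± 0.09 at 4 h (adjusted p = 0.0748) and -0.18 ± 0.09 at 8 h (adjusted p = 0.09). With TMM scaling it was called higher at both times (0.54 and 0.50), so its direction at 8 h depends on the scaling. Mdm2 had 31.8 and 33.5 FPM at 4 h and 18.3, 26.1, 17.7 and 25.5 FPM at 8 h, all below the lowest value of 0 h. Its log2 change was -1.42 ± 0.20 at 4 h (adjusted p = 6.72e-08) and -1.999 ± 0.20 at 8 h (adjusted p = 5.2e-13). Cdkn1a had 40.4 and 39.1 FPM at 4 h and 34.2, 31.1, 32.9 and 37.8 FPM at 8 h, so most of its loss was seen by 4 h. The log2 change was -0.97 ± 0.19 (adjusted p = 4.29e-05) and then -1.20 ± 0.19 (adjusted p = 2.53e-07), and both calls were lost with aligned medians.

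All 7 cell cycle members were called lower at both times. With TMM scaling and with aligned medians the calls of Ccng1 and Gtse1 at 4 h and of Ccng1 and Ckap2 at 8 h were lost, and without WT replicate B those of Gadd45a, Ccng1 and Gtse1 at 4 h. Btg2, an antiproliferative gene of the immediate early kind, had 2.58 and 0.798 FPM at 4 h and 2.28, 5.02, 0 and 5.28 FPM at 8 h, from 23.4, 27.9, 20.6 and 21.0 at 0 h. These few reads made its log2 changes, -3.25 ± 0.40 (adjusted p = 1.58e-09) and -2.85 ± 0.40 (adjusted p = 1.52e-08), imprecise in size. Gtse1 had 35.3 and 31.9 FPM at 4 h and 7.99, 22.1, 7.59 and 14.1 FPM at 8 h, from 59.2 to 67.6 at 0 h (log2 change -0.88 ± 0.23 at 4 h, adjusted p = 0.0017, and -2.31 ± 0.23 at 8 h, adjusted p = 1.75e-13). Plk2 changed by -1.70 ± 0.27 at 4 h (adjusted p = 1.1e-06) and -2.005 ± 0.27 at 8 h (adjusted p = 5.43e-09). Ckap2, a spindle protein, changed by -1.26 ± 0.23 at 4 h (adjusted p = 2.15e-05). Ccng1 changed by -0.87 ± 0.13 at 8 h (adjusted p = 4.3e-08), but by 0.19 with aligned medians.

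Phlda3 had the smallest adjusted p of the members at both times. It had 34.4 and 36.7 FPM at 4 h and 28.5, 23.1, 33.8 and 40.5 FPM at 8 h, far below 0 h, so nearly all of its loss was seen by 4 h (log2 change -2.09 ± 0.14, adjusted p = 1.78e-19, and -2.29 ± 0.14, adjusted p = 9.66e-22). Trp53inp1 changed by -1.20 ± 0.22 at 4 h (adjusted p = 1.11e-05) and -1.96 ± 0.22 at 8 h (adjusted p = 9.22e-12). Ei24 changed by -1.18 ± 0.13 at 8 h (adjusted p = 1.46e-11), a call lost with aligned medians (-0.13), and Aen, an exonuclease that acts in apoptosis, by -1.64 ± 0.19 (adjusted p = 2.97e-11). The receptor tyrosine kinase gene Epha2 fell to 13.3% of its 0 h mean at 8 h (log2 change -2.79 ± 0.31, adjusted p = 2.42e-11), after -1.93 ± 0.31 at 4 h (adjusted p = 1.7e-06). Pml changed by -1.36 ± 0.29 (adjusted p = 0.000198) and Ddit4 by -1.35 ± 0.29 (adjusted p = 0.000215) at 4 h, and the call of Pml was lost without WT replicate B. The members not called at 8 h were Trp53, Sesn1 and 3 DNA repair genes, Polk, Xpc and Ddb2.

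Of the further p53 targets, 12 of 18 were lower at 8 h and 0 higher, with a median of -0.69 against -0.81 over all genes, of which 55.2% were lower. The 5 with the smallest adjusted p were Psrc1 (-1.62 ± 0.14), Bcl2l1 (-2.37 ± 0.24), Sfn (-1.24 ± 0.14), the death gene Bbc3 (-2.58 ± 0.32) and Slc19a2 (-2.74 ± 0.36). Of the regulators, 12 of 21 were lower and 0 higher, with a median of -0.65, led by Usp10 (-2.001 ± 0.18), Npm1 (-0.37 ± 0.03), Usp7 (-1.003 ± 0.11), the acetyltransferase Ep300 (-2.34 ± 0.32) and Prmt5 (-0.76 ± 0.11). The fibroblast sum was 1122 to 1210 FPM at 8 h in WT, above its range at 0 h, and its part in these values was not tested.

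**Figure D3:**
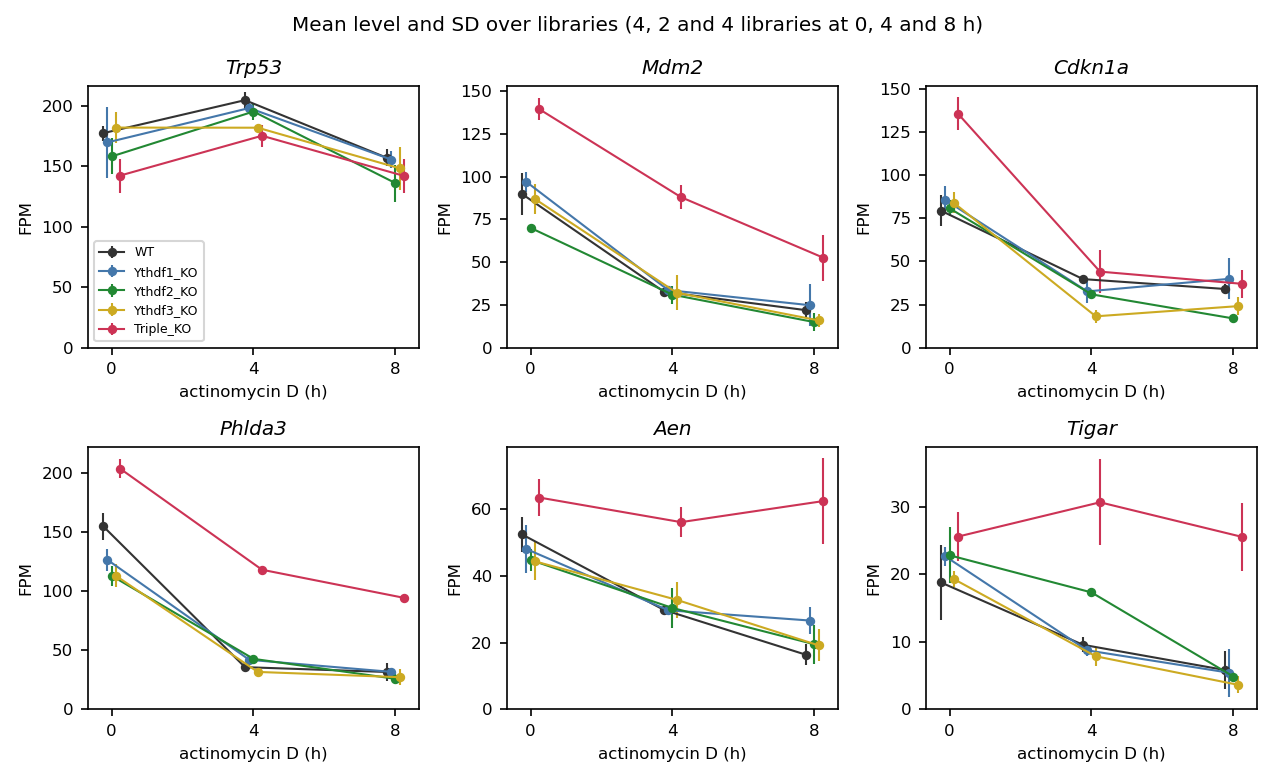
FPM (y axis) of 6 members against hours of actinomycin D (x axis) for 5 genotypes; points are means and bars SD over 4, 2 and 4 libraries. Phlda3, Aen and Tigar end higher in Triple_KO, at 94.3, 62.5 and 25.6 FPM at 8 h, than in WT at 31.5, 16.3 and 5.80 FPM.

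Whether the loss over 8 h differed between a knockout and WT was tested as a genotype by time term. In Triple_KO 3 of 30 members were lost less than in WT and 0 more, against 7.22% and 0.022% over 9078 genes. The count of 3 is near that share over all genes, so it does not set the members apart. At an unadjusted p under 0.05, where no share over all genes was taken, limma gave 11 members higher and 1 lower. The median difference was 0.58 on the log2 scale for the members and 0.37 for all genes. The members kept a median of 42.5% of their 0 h level in Triple_KO, against 75.5% over all genes. With TMM scaling, as with aligned medians, 2 members were higher and 1, Cdkn1a, lower. Over all genes the median difference was then 0.08 with TMM and -0.08 with aligned medians. Over all genes the counts of 655 higher and 2 lower became 106 and 44 with TMM and 65 and 109 with aligned medians. With edgeR on recovered reads 9 members were higher and 1 lower, and over all 9078 genes 1281 and 11.

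Aen had 49.95, 48.2, 51.8 and 60.1 FPM at 0 h, 30.1 and 29.5 at 4 h and 17.1, 17.0, 11.8 and 19.4 at 8 h in WT. In Triple_KO it had 57.0, 68.7, 68.0 and 60.7 FPM at 0 h, 59.4 and 52.96 at 4 h and 70.3, 49.1, 76.5 and 54.2 at 8 h. Its level thus hardly moved in Triple_KO, where it kept 98.3% of the 0 h mean, against 31.1% in WT (difference 1.60 ± 0.26, adjusted p = 1.45e-05). Phlda3 had 118 and 118 FPM at 4 h and 98.1, 93.1, 93.7 and 92.4 FPM at 8 h in Triple_KO, all above the WT libraries of those times. It kept 46.3% of the 0 h mean, against 20.3% in WT (difference 1.19 ± 0.20, adjusted p = 2.48e-05). The calls of Aen and Phlda3 held under every alternative tried.

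Tigar encodes a phosphatase that lowers glycolytic flux. It had 16.7, 12.7, 20.02 and 25.9 FPM at 0 h, 10.3 and 8.77 at 4 h and 5.71, 2.01, 8.44 and 7.04 at 8 h in WT. In Triple_KO it had 24.5, 21.0, 27.5 and 29.4 FPM at 0 h, 35.2 and 26.2 at 4 h and 19.8, 23.1, 30.6 and 28.8 at 8 h. The libraries of 8 h did not overlap between the genotypes (difference 1.61 ± 0.48, adjusted p = 0.024). This call was lost with both other scalings and without any 1 of the 4 replicates compared.

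Cdkn1a did not follow these genes. Its 8 h level in Triple_KO, 45.4, 41.9, 33.2 and 27.7 FPM, overlapped that of WT although it began higher, and it kept 27.3% of its 0 h mean, against 42.8% in WT. The difference of -0.67 ± 0.27 did not pass (adjusted p = 0.122), whereas it was called lower with TMM scaling (-0.997), aligned medians (-1.12) and edgeR (-0.68). It was -0.34 without Triple_KO replicate B and -1.004 without Triple_KO replicate A, and was called in neither case. Mdm2 kept 37.7% in Triple_KO and 24.4% in WT (difference 0.58 ± 0.29, adjusted p = 0.246), and edgeR called it higher (0.65). Trp53 kept 99.8% and 88.5% (difference 0.17 ± 0.13, adjusted p = 0.482), but the difference was -0.16 with TMM scaling. Of the further targets 4 of 18 were lost less and 0 more, namely Sfn (1.03 ± 0.20), Bax (0.38 ± 0.09), Bcl2l1 (1.22 ± 0.34) and Psrc1 (0.63 ± 0.20). Of 21 regulators 3 were lost less, Npm1 (0.25 ± 0.05), Prmt5 (0.63 ± 0.15) and Usp10 (0.96 ± 0.25), and 0 more. The medians of the lists were 0.55 and 0.50, against 0.37 over all genes, of which 7.22% were lost less.

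**Figure D4:**
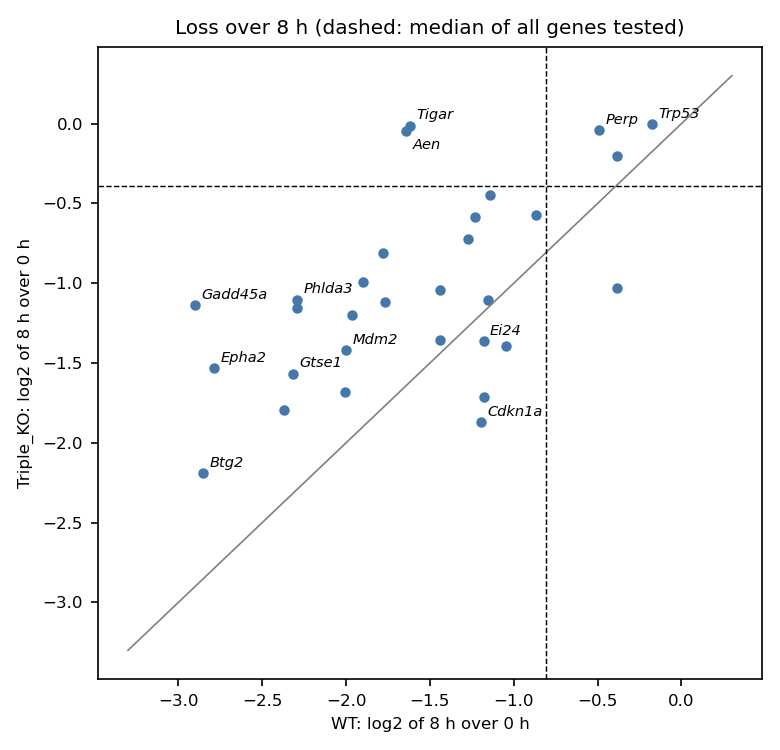
Log2 ratio of 8 h to 0 h in Triple_KO (y axis) against WT (x axis) for the 30 tested members; the diagonal marks equal loss and dashed lines the median of all genes tested. Aen and Tigar lie far above the diagonal, with differences of 1.60 and 1.61, and Cdkn1a below it at -0.67.

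In the single knockouts limma called 0 members for a different loss over 8 h. Over all genes 0.0441% were called higher and 0% lower in Ythdf1_KO, 0% and 0.176% in Ythdf2_KO, and 0% and 0.33% in Ythdf3_KO. At an unadjusted p under 0.05 the members gave 2 higher and 0 lower in Ythdf1_KO, 0 and 2 in Ythdf2_KO, and 0 and 2 in Ythdf3_KO. No share over all genes was taken at that threshold. With edgeR the calls were 0 in Ythdf1_KO, 1 lower in Ythdf2_KO and 0 in Ythdf3_KO, while over all genes edgeR called 4 higher in Ythdf1_KO, 32 lower in Ythdf2_KO, and 2 higher and 72 lower in Ythdf3_KO. The edgeR call was Cdkn1a, which had 16.9 ± 2.70 FPM at 8 h in Ythdf2_KO and kept 20.9% of its 0 h mean (limma difference -1.01 ± 0.27, adjusted p = 0.133). In Ythdf3_KO Cdkn1a kept 28.6% (-0.59 ± 0.27, adjusted p = 0.712) and in Ythdf1_KO 46.6% (0.06 ± 0.27, adjusted p = 0.996). For Mdm2 the differences were -0.05 ± 0.29 in Ythdf1_KO, -0.23 ± 0.29 in Ythdf2_KO and -0.41 ± 0.29 in Ythdf3_KO (adjusted p = 0.998, 0.963 and 0.937). For Trp53 they were 0.06 ± 0.13, -0.04 ± 0.13 and -0.12 ± 0.13 (adjusted p = 0.991, 0.984 and 0.991). The members' median level at 8 h was 33.4% of 0 h in Ythdf1_KO, 22.0% in Ythdf2_KO and 30.8% in Ythdf3_KO, against 57.3%, 50.2% and 53.7% over all genes.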

How the data were processed

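The deposited values were FPM from 3′ end poly(A) RNA-seq, reads per transcript scaled by the authors to each library's total (the unit RPM). The submitters' processing notes name the tools CASAVA 1.8.2 and Bowtie2, and the build mm10. The use of strand, the counting of reads with several matches and the filter on listed transcripts are not given in the sources used here. Whole reads were recovered, within 0.1 read, from 100% of the values in the 50 libraries, at 0.427 to 1.25 FPM per read, so members near 5 FPM rest on few reads.

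Of 22338 transcripts, 21725 were named through RefSeq GRCm38.p6 and 124 through GENCODE, 489 had no name, 2169 identical repeats were dropped, and distinct rows of a gene were summed. Duplicate libraries were averaged as log2(FPM + 1), a scale that makes changes of low genes look smaller, and tests ran over replicates (n = 2 a group). A minimum of 5 FPM in 2 or more replicate means was required. The test was limma 3.58 (R 4.3; empirical Bayes with a mean-variance trend; Benjamini-Hochberg over all genes, 0.05), fitted to the 0 h means for levels and to all 30 for times and decay. edgeR 4.0 on recovered reads was an alternative. The script was tested on simulated data, where small differences in decay were often missed.

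The members and lists were chosen with earlier results of these data known. Named were Trp53, Mdm2, Cdkn1a and the called members, up to 10 per comparison, plus up to 5 called genes of each pathway list. Endoderm, trophectoderm and neural markers were also listed.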

Additional observations from a re-analysis of the deposited data

Results flagged for a closer look

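In 3 of 130 groups of 4 libraries, over 13 members screened, 1 library lay far from the other 3, where chance flags about 1 in 20 groups. Trp53 in Ythdf2_KO at 8 h was 159 FPM in 1 library and 127.3 to 129.1 in the others. Mdm2 in Ythdf3_KO at 8 h was 9.93 FPM in 1 library and 17.4 to 18.5 in the others. Phlda3 in Ythdf3_KO at 0 h was 127 FPM in 1 library and 106 to 109.5 in the others, and all 4 were below WT. Between genotypes, the log2 loss over 8 h differed between Triple_KO and WT for Aen (1.60), Phlda3 (1.19) and Tigar (1.61) by the genotype by time term of limma.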

How the results depend on the processing

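Of the member counts under the alternatives, 105 stayed within 1.5 times the value reported and 21 did not. The 105 include counts of 0 under both settings, as in most alternatives for decay in the single knockouts, where no call could be lost. For levels at 0 h, testing all genes without a filter gave Ythdf1_KO 0 member calls, Ythdf2_KO 2, Ythdf3_KO 1 and Triple_KO 4. Over all 19455 genes this gave 16 higher and 14 lower, 88 and 83, 44 and 30, and 594 and 275. Fitting all times together gave 0, 1, 1 and 3 members. Over all 9078 genes it gave 15 higher and 5 lower, 82 and 56, 34 and 25, and 346 and 211. Member calls thus fell together with those over all genes. Leaving out 1 replicate gave 0 to 2, 5 to 7, 4 to 7 and 5 to 9. edgeR gave 1 in Ythdf1_KO, and for decay 1 in Ythdf2_KO and 10 in Triple_KO. In WT, aligned medians gave 12 calls at 4 h and 15 at 8 h, and leaving out 1 replicate gave 11 to 15 at 4 h and 22 at 8 h. The cause was not tested. No pairing by the letters A and B was seen, as the correlation of their deviations over 105 pairs of groups ran from -0.0407 to 0.0376. Since A and B differed no more than duplicate libraries did, this check could hardly show a pairing and excludes none. The fit with a replicate block gave the same count of members as the fit without it in every comparison, such as 11 in Triple_KO at 0 h. For single genes, 962 values kept direction and side of the threshold, 159 lost their call, 7 gained one and 28 changed sign. With aligned medians, the change in WT was 0.0495 for Ccng1 at 4 h and, at 8 h, 0.88 for Trp53, 0.19 for Ccng1 and 0.56 for Perp. With TMM it was 0.50 for Trp53 and 0.17 for Perp at 8 h. The other sign changes were of values that were not called under either setting. At 0 h, leaving out 1 replicate gave Cdkn1a -0.00854 to 0.23 in Ythdf1_KO, -0.088 to 0.15 in Ythdf2_KO and -0.034 to 0.20 in Ythdf3_KO, where Trp53 was -0.033 to 0.10 and Mdm2 -0.12 to 0.043. For decay with 1 replicate left out, Ythdf1_KO gave Mdm2 -0.56 to 0.47 and Cdkn1a -0.28 to 0.40, Ythdf2_KO gave Trp53 -0.14 to 0.061 and Mdm2 -0.60 to 0.15, and Ythdf3_KO gave Trp53 -0.27 to 0.020. TMM gave decay differences of -0.018 for Trp53 and -0.0198 for Cdkn1a in Ythdf1_KO, 0.088 for Trp53 in Ythdf2_KO and -0.16 in Triple_KO. Aligned medians gave Trp53 0.086 in Ythdf2_KO and -0.28 in Triple_KO, and edgeR gave Mdm2 0.052 in Ythdf1_KO. Depth limits the members near 5 FPM, such as Xpc, Sesn1, Polk, Ppm1d and Rap2b.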
